A study of Mus musculus with 6 samples.

Results

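The Tcl1 oocyte gene cluster consisted of the 6 genes Tcl1, Tcl1b1, Tcl1b2, Tcl1b3, Tcl1b4 and Tcl1b5, chosen by gene symbol from the 17577 genes listed in each library. All 6 were listed, and all 6 passed the filter on low values. Germinal vesicle (GV) oocytes, which are arrested before the first meiotic division, were collected from PMSG-primed female C57BL/6 J mice aged 12 weeks. RNA-seq libraries came from 3 Bnc1tr/tr samples, homozygous for a germline frameshift in Bnc1 that truncates the zinc finger protein basonuclin 1, and from 3 wild-type (WT) samples. Because the allele is carried by every cell of the mouse, the oocytes developed in follicles that were mutant too. By the methods, cDNA was made from single oocytes. The study describes its groups as biological replicates run in duplicate and its comparisons as made among littermates. Whether the 3 libraries of a genotype came from separate animals, and how the duplicate runs enter them, was not stated, and p-values then measure only the spread between these libraries.

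TCL1 is a small cytoplasmic protein that binds the pleckstrin homology domain of the kinase AKT and favours AKT activation. It was first known as an oncogene of T-cell leukaemia, and in mice its maternal supply is known to support cleavage of the early embryo. The Tcl1b genes are mouse paralogues in the same cluster whose own functions are less well known. Fully grown oocytes store large amounts of messenger RNA for use after transcription has stopped, and the Tcl1 family belongs to this maternal store.

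On the GRCm38.p6 build, the 6 genes lay side by side over 75.7 kb of chromosome 12. From the proximal end, the RefSeq gene models were Tcl1b2 (chr12:105147019-105155225), Tcl1b1 (chr12:105159704-105166625), Tcl1b5 (chr12:105176344-105181145), Tcl1b3 (chr12:105191045-105195399) and Tcl1b4 (chr12:105202395-105206993), all on the plus strand. Tcl1 (chr12:105216753-105222737) closed the cluster on the minus strand, so that it faced the Tcl1b genes. Gaps between neighbours were 4.48 to 9.9 kb. In the GENCODE M21 annotation the main transcript of each gene had 4 exons, 3 of them coding, and the coding parts held 116 to 122 residues.

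The 250 bases before each annotated start are printed because the genes with the most different genotype responses, Tcl1b4 and Tcl1b2, had nearly the same upstream sequence. They are RefSeq sequences of GRCm38.p6, each written 5′ to 3′ on its gene's strand, with E-boxes (CANNTG, searched on both strands) in capitals. The windows were chr12:105146769-105147018, chr12:105202145-105202394, chr12:105159454-105159703, chr12:105176094-105176343 and chr12:105190795-105191044 on the plus strand, and chr12:105222738-105222987 on the minus strand.
Tcl1b2: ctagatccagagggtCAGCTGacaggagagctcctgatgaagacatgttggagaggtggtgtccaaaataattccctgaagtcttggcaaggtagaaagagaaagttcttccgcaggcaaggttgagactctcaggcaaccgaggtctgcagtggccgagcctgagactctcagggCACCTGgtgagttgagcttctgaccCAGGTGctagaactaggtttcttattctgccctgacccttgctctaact
Tcl1b4: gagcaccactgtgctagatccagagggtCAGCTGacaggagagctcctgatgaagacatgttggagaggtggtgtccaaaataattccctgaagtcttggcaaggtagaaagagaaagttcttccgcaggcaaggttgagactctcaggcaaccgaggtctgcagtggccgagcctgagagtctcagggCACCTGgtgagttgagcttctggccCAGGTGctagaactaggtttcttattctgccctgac
Tcl1b1: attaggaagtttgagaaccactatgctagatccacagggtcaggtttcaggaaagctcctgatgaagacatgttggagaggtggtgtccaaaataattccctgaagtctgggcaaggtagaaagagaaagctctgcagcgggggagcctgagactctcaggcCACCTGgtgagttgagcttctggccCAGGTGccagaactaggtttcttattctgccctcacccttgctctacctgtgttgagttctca
Tcl1b5: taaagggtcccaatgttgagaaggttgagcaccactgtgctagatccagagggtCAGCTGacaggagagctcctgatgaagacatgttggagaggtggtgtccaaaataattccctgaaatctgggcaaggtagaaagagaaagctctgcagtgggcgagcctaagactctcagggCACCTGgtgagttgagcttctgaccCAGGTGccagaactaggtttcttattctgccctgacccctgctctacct
Tcl1b3: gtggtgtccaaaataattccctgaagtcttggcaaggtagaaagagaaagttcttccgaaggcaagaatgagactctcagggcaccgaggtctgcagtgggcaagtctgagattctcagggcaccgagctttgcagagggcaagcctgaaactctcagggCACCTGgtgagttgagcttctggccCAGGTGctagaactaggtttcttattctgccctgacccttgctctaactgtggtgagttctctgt
Tcl1: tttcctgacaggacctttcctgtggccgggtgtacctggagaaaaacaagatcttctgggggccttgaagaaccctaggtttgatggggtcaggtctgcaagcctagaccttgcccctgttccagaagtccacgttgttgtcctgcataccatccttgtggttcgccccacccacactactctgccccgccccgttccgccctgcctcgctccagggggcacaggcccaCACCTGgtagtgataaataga

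The Tcl1b2 and Tcl1b4 windows were 99.2% identical over 237 aligned bases with 0 gaps. The 2 differences, with the Tcl1b2 base first and positions counted from 1 at the 5′ end of the Tcl1b2 window, were C168G and A199G. Across the 10 pairs of Tcl1b genes, upstream identity ran from 91.9% to 99.2%, and identity of the main transcripts from 85.6% to 93.3%. Tcl1b3 and Tcl1b5 had the most similar transcripts.

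All 5 Tcl1b windows held a CACCTG and a CAGGTG E-box with their first bases 25 bases apart. This pair at this spacing was found in 6 of 32851 RefSeq upstream windows of the same length (0.0183%), the sixth being 1700097N02Rik, a gene named after its match was seen. The pair and its spacing were read from the 5 Tcl1b windows, which are closely alike. Its presence in all 5 was thus fixed by the choice, and its rarity elsewhere is not a test. E-boxes as such were common, with at least 1 in 66.2% of all windows. At least 2, as in Tcl1b1 and Tcl1b3, were present in 31.8% of windows, and at least 3, as in Tcl1b2, Tcl1b4 and Tcl1b5, in 12.2%. Tcl1 held 1.

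The longest stretches shared by all 5 Tcl1b windows were gtggtgtccaaaataattccctgaa and, after the CAGGTG E-box, agaactaggtttcttattctgccct. Both were 25 bases long and were found in no other upstream window. They were also picked from these windows, so this describes them and is not a test. The former began at the first base of the Tcl1b3 window, so its length may be cut there. TATAAA was found in 0 of the 6 windows (12.4% of all windows), and the NOBOX-type letters TAATTG in 0 of 6 (7.17%). CCAAT was found only in Tcl1b5 among the 6 (33.8% of all windows). These matches describe letters in the windows and not binding.

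**Figure D1:**
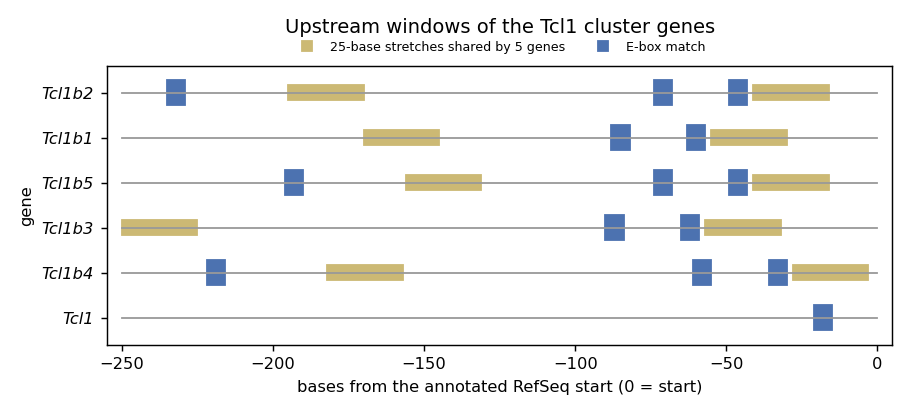
Positions of E-box matches (blue) and of the 25-base stretches shared by the 5 Tcl1b genes (yellow) in the 250 bases before each RefSeq start. The horizontal axis is the distance from the start in bases. The last 2 E-boxes of every Tcl1b gene sit 25 bases apart, and Tcl1 has 1 E-box near its start.

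To place the members among the other transcripts, the 6 libraries were first compared as a whole. FPKM (fragments per kilobase of transcript, scaled to the mapped fragments of the library) summed to 657550 to 724550 per library, and 13896 to 15736 genes were above 0. Depth was not given in the files, and steps of the low values put it at 13.4 to 21.8 M (mega) fragments. At that depth every member had an estimated 2258 or more fragments in every library, a counting error of at most 2.1%. The cDNA was amplified and carried no molecular identifiers, so this figure covers counting error only. The summed level of 12 oocyte markers was 14709 to 16171 FPKM in Bnc1tr/tr and 16405 to 18098 in WT, with none at 0. The markers did not move together. In every Bnc1tr/tr library 3 were higher (Bmp15, Oosp1 and Mos) and 3 lower (Zp2, Zp3 and Nlrp5), beside 32.7% and 14.1% of all tested genes. The largest, Dppa3, overlapped between groups (6310 ± 832 against 8067 ± 2622 FPKM; SD, n = 3 each).

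Bnc1 itself was 9.04, 6.51 and 5.83 FPKM in the Bnc1tr/tr libraries (replicates 1 to 3, the order used for every gene) and 13.17, 12.54 and 16.23 in WT. Its transcript was thus present in all libraries and fell in Bnc1tr/tr (log2 fold change -0.89, SE 0.199, limma adjusted p = 0.00895). The allele truncates the protein, and a whole-gene FPKM does not read the allele.

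To determine whether the Tcl1 cluster differed between genotypes, the members were compared in all 6 libraries. Tcl1b4 was 2.45 times its WT level in Bnc1tr/tr oocytes and Tcl1b5 was 1.64 times, and both were called, which needed a log2 fold change beyond 0.5 in either direction at an adjusted p below 0.05. Tcl1, Tcl1b1 and Tcl1b3 had ratios of 1.32, 1.27 and 1.36, and Tcl1b2 had a ratio of 0.800, all within the fold threshold and none past the adjusted p. So 2 of 6 members were called higher and 0 lower, against 24.1% higher and 7.68% lower among all 10560 tested genes. Among the 1288 tested genes of at least 100 FPKM, an abundance class set after the data had been seen, 9.47% were called higher and 9.39% lower, 18.9% in all (31.8% of all tested genes).

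The groups did not overlap for any of the 6 members. In Bnc1tr/tr, 5 were higher in every library (32.7% of all tested genes) and 1 was lower in every library (14.1%). The median log2 fold change of the members was 0.42, beside 0.15 over all tested genes and -0.06 over those of at least 100 FPKM. Of all called genes, 75.85% were higher, and this share was 63.54%, 59.32% and 48.01% with upper-quartile, median-ratio and quantile scaling. The signs of the members' fold changes did not turn under any of these scalings, and they also held after subtracting the median fold change of the tested genes.

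**Figure D2:**
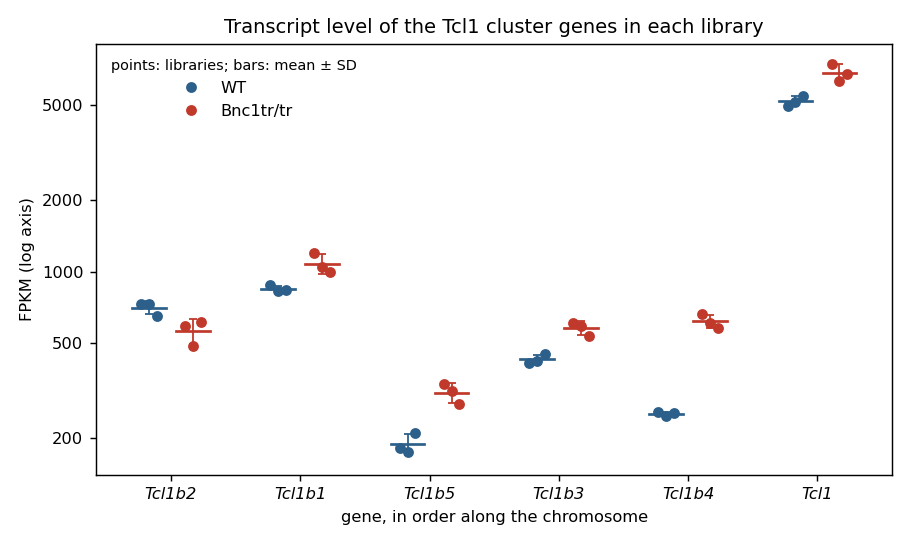
FPKM of each member (vertical axis, log scale) in the 3 WT (blue) and 3 Bnc1tr/tr (red) libraries, with genes in chromosome order. Points are libraries and bars are means ± SD. Red points lie above blue ones for all members but Tcl1b2, where they lie below.

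Tcl1, the founding AKT coactivator, was by far the most abundant member. Its level was 7474.37, 6338.59 and 6745.19 FPKM in Bnc1tr/tr and 4975.02, 5165.84 and 5480.1 in WT. Every Bnc1tr/tr library was above every WT library, and Tcl1 ranked 2, 3 and 5 of 17577 genes in Bnc1tr/tr and 8, 8 and 11 in WT. The means were 6853 ± 575 and 5207 ± 255 FPKM (SD, n = 3 each). The log2 fold change on the log2(FPKM + 1) scale was 0.39 (SE 0.158, 95% interval 0.04 to 0.75, limma adjusted p = 0.0886), so this difference did not pass the adjusted threshold.

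Among the Tcl1b genes, Tcl1b4 showed the largest change. Its level was 661.95, 609.93 and 581.83 FPKM in Bnc1tr/tr and 256.46, 246.69 and 254.66 in WT. The WT libraries lay close together, and the lowest Bnc1tr/tr library was far above them. Means were 618 ± 40.7 and 253 ± 5.20 FPKM (SD, n = 3 each), with a log2 fold change of 1.29 (SE 0.153, 95% interval 0.94 to 1.63, limma adjusted p = 0.000313). Its rank rose from between 507 and 554 in WT to between 148 and 212 in Bnc1tr/tr.

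Tcl1b5, the least abundant member in both genotypes, was 336.28, 315.94 and 278.04 FPKM in Bnc1tr/tr and 181.62, 173.91 and 210.57 in WT. The highest WT library was below the lowest Bnc1tr/tr library. Means were 310 ± 29.6 and 189 ± 19.3 FPKM (SD, n = 3 each), and the log2 fold change was 0.71 (SE 0.167, 95% interval 0.34 to 1.09, limma adjusted p = 0.0113). Without WT replicate 2 the fold change was 0.66 and the adjusted p was 0.0581, so this call was lost.

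Tcl1b2, at the far end of the cluster from Tcl1, went the other way. Its level was 591.3, 487.39 and 612.57 FPKM in Bnc1tr/tr and 728.64, 732.51 and 653.64 in WT. No Bnc1tr/tr library reached the lowest WT library, but the gap was small. Means were 564 ± 67.0 and 705 ± 44.5 FPKM (SD, n = 3 each), with a log2 fold change of -0.33 (SE 0.167, 95% interval -0.71 to 0.05, limma adjusted p = 0.169). With median-ratio scaling the fold change was -0.51 and the adjusted p was 0.0378, past both thresholds.

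Tcl1b1 and Tcl1b3 had fold changes near that of Tcl1, and their difference from it was not tested in this fit. Tcl1b1, the most abundant Tcl1b gene, was 1196.3, 1043.56 and 999.22 FPKM in Bnc1tr/tr and 875.86, 826.47 and 838.79 in WT (log2 fold change 0.35, SE 0.158, limma adjusted p = 0.128). Tcl1b3 was 610.39, 593.38 and 537.61 FPKM in Bnc1tr/tr and 412.32, 420.5 and 451.09 in WT (log2 fold change 0.44, SE 0.155, limma adjusted p = 0.0595). Both sets of libraries were separate by genotype, and neither gene passed the adjusted threshold, though Tcl1b3 had an adjusted p below it in 4 alternatives (lowest 0.0195), as Tcl1 had in 3 (lowest 0.0204).

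**Figure D3:**
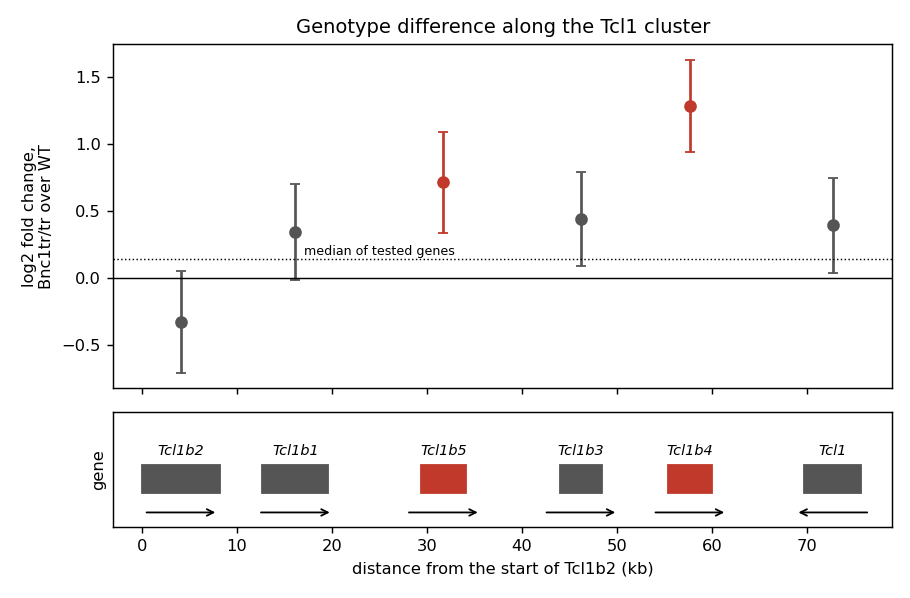
Log2 fold change of Bnc1tr/tr over WT with its 95% interval (upper panel) for each member at its place along the cluster, with gene bodies and the direction of transcription (lower panel). The horizontal axis is the distance from the start of Tcl1b2 in kb, the dotted line is the median of all tested genes (0.15), and called genes are red. Tcl1b4 and Tcl1b5 were called and were separated by Tcl1b3, which was not.

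The order of the levels changed with genotype. In WT it was Tcl1, Tcl1b1, Tcl1b2, Tcl1b3, Tcl1b4 and Tcl1b5 from highest to lowest, and no neighbours in this order overlapped. In Bnc1tr/tr it was Tcl1, Tcl1b1, Tcl1b4, Tcl1b3, Tcl1b2 and Tcl1b5. There Tcl1b4 and Tcl1b3 overlapped, as did Tcl1b3 and Tcl1b2, so the ranges did not separate the middle 3 genes. Within libraries, Tcl1b4 was above Tcl1b3 in 3 of 3 and Tcl1b3 above Tcl1b2 in 2 of 3. FPKM is per length, but amplification and the split of reads shared by the Tcl1b genes can still differ between genes. The order of the middle 3 genes is uncertain to that extent.

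As a whole, the cluster made up more of the FPKM total in Bnc1tr/tr. The summed level of the 6 members was 10005 ± 772 FPKM in Bnc1tr/tr and 7628 ± 236 in WT (SD, n = 3 each), a ratio of 1.31, with no overlap. This was 1.47% ± 0.166 and 1.102% ± 0.0121 of the FPKM total. Tcl1 took 68.5% ± 0.855 of the cluster sum in Bnc1tr/tr and 68.2% ± 1.25 in WT, and these shares overlapped. Among other things, a higher FPKM can be more transcripts per oocyte or a smaller pool of other transcripts, which cannot be told apart in these values. By the methods, the cDNA was primed with oligo(dT), and poly(A) tail lengths were not measured.

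Within the Tcl1b genes the make-up differed. Tcl1b4 was 19.5%, 20.0% and 19.3% of the summed Tcl1b FPKM in Bnc1tr/tr and 10.4%, 10.3% and 10.6% in WT. Tcl1b2 was 17.4%, 16.0% and 20.4% in Bnc1tr/tr and 29.7%, 30.5% and 27.1% in WT. In other words, the share of one was higher and that of the other lower in every Bnc1tr/tr library. Tcl1b5 had a share of 9.83% ± 0.562 in Bnc1tr/tr and 7.80% ± 0.823 in WT, without overlap. The shares of Tcl1b1 (34.2% and 34.98%) and Tcl1b3 (18.4% and 17.7%) overlapped between the groups.

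**Figure D4:**
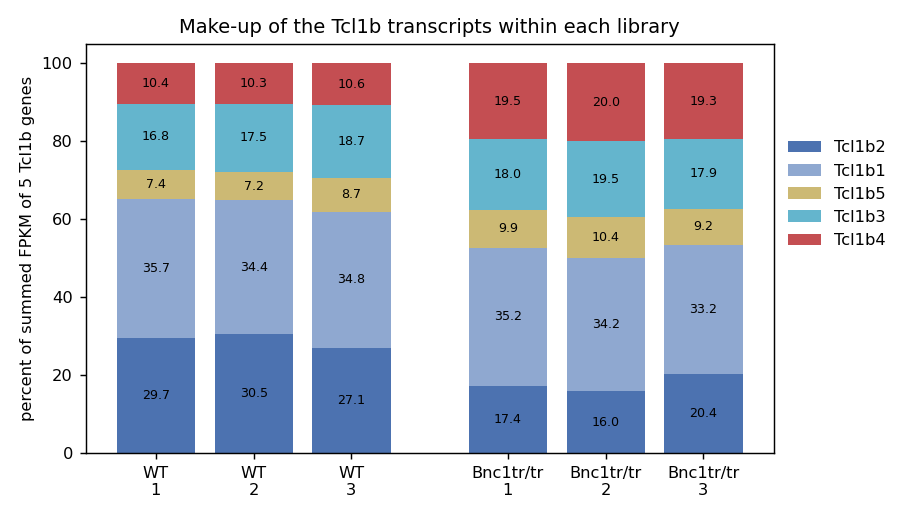
Share of each Tcl1b gene in the summed FPKM of the 5 Tcl1b genes (vertical axis, percent) in each library, WT on the left and Bnc1tr/tr on the right. Tcl1b4 (red) takes about 10% in each WT library and 19.3% to 20.0% in each Bnc1tr/tr library, while Tcl1b2 (dark blue) is smaller in each Bnc1tr/tr library.

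A ratio of a pair of members within a library does not depend on the scaling of that library. The Tcl1b2 to Tcl1b4 ratio was 0.893, 0.799 and 1.05 in Bnc1tr/tr and 2.84, 2.97 and 2.57 in WT. Tcl1b2 was thus well above Tcl1b4 in WT oocytes and at about its level in Bnc1tr/tr oocytes. An exact two-sided permutation test of the log2 ratio gave p = 0.10, the smallest that 3 against 3 allows (0.125 adjusted over 15 pairs). Of all 15 ratios between members, which share 6 genes and are not independent, 12 did not overlap between genotypes. Among all 828828 pairs of genes of at least 100 FPKM, 44.1% of ratios did not overlap. The 3 that did were those among Tcl1, Tcl1b1 and Tcl1b3, and the exact permutation p was 0.60 for Tcl1 to Tcl1b1, 0.90 for Tcl1 to Tcl1b3 and 0.20 for Tcl1b1 to Tcl1b3.

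Because the Tcl1b transcripts are similar, reads shared between them are split by estimation, and the levels of single Tcl1b genes are uncertain to that extent. Of the 31-base words of each gene's annotated transcripts, 12.4% occurred in another member for Tcl1b4, 29.2% for Tcl1b1, 33.4% for Tcl1b2, 38.3% for Tcl1b5 and 47.5% for Tcl1b3. Tcl1 shared 0%, and no member shared words with genes outside the cluster. With 100-base words, sharing was 0% for Tcl1b4 and at most 9.09%, for Tcl1b3. By these words Tcl1b4 shared the least of the Tcl1b genes, counted over its 2 annotated transcripts. By identity of the main transcripts it was 85.6% to 89.0% like the other Tcl1b genes, beside 85.6% to 90.9% for Tcl1b1. The part of read sharing in the genotype differences of Tcl1b2, Tcl1b4 and the other Tcl1b genes was not tested.

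Markers of other ovarian cells were low beside the members. The summed level of 11 granulosa cell markers was 49.4 to 66.1 FPKM in Bnc1tr/tr and 23.4 to 41.0 in WT, with Foxl2 and Amhr2 at 0 in all 3 Bnc1tr/tr libraries. Of the 11, 4 were higher in every Bnc1tr/tr library and 0 lower. Over all tested genes these shares were 32.7% and 14.1%, to be set beside each such count below. Among the 4 were the FSH receptor gene Fshr (5.25 ± 0.654 against 0.350 ± 0.372 FPKM; SD, n = 3 each) and Cyp11a1 (5.63 ± 0.405 against 1.26 ± 0.816). Most of the sum was Cyp19a1 (35.1 ± 8.58 against 23.3 ± 5.79), which overlapped between groups. Inha, Hsd17b1 and Fst had lower means in Bnc1tr/tr (0.693, 0.197 and 0.0533 against 3.42, 0.787 and 0.257), with overlap. For 7 theca and stroma markers the range was 6.53 to 10.3 in Bnc1tr/tr and 1.73 to 2.27 in WT, and Col1a1 was at most 0.01. Of these, 3 were higher in every Bnc1tr/tr library, namely Dcn (6.11 ± 1.05 against 1.62 ± 0.352 FPKM), Lum and Pdgfra. The summed levels of both lists were thus higher in Bnc1tr/tr, as were 5 members. The lowest value of any member in any library was 173.91 FPKM, for Tcl1b5. TCL1 is also made in lymphoid cells, and 7 lymphocyte markers summed to 50.5 to 54.3 in Bnc1tr/tr and 86.8 to 105 in WT, most of it Ms4a1. Cd79a was at most 0.14. Of the 7, 4 were higher in every Bnc1tr/tr library and 1, Ms4a1, was lower in every one. For 8 myeloid markers the summed ranges overlapped (64.5 to 138 and 67.6 to 98.3), most of them C1qb. However, 3 of the 8, C1qa, Adgre1 and Laptm5, were higher in every Bnc1tr/tr library, and Lyz2 was 5.81, 47.97 and 0 FPKM in Bnc1tr/tr and 0 in every WT library. Tyrobp was 8.42, 9.8 and 0 FPKM in Bnc1tr/tr and 0 in every WT library. The 4 endothelial markers summed to 5.38 to 8.1 in Bnc1tr/tr and 10.1 to 11.7 in WT, most of it Pecam1. Of the 4, 1 was higher in every Bnc1tr/tr library (Kdr, mean 0.903 against 0.0967 FPKM). Another 1 was lower in every one (Pecam1, mean 4.01 against 9.11 FPKM). The part of these cells in the members' differences was not tested.

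Outside the cluster, the related AKT coactivator Mtcp1 was nearly silent, at 0.47 to 0.66 FPKM in Bnc1tr/tr and 0 to 0.75 in WT, and was below the filter. The nearest listed genes were then examined on each side. Glrx5, which serves mitochondrial iron-sulfur cluster assembly, lay 106.1 kb beyond Tcl1b2 and was 463.58, 534.22 and 583.66 FPKM in Bnc1tr/tr and 444.63, 441.81 and 573.5 in WT. It overlapped between genotypes (log2 fold change 0.12, limma adjusted p = 0.659), and its sign turned under upper-quartile and median-ratio scaling. Next on that side, Syne3, a nuclear envelope protein gene, was not called (0.24, adjusted p = 0.490; negative with quantile scaling), and Clmn was below the filter, at 2.03, 0.62 and 1.28 FPKM in Bnc1tr/tr and 0.08, 0.18 and 0.21 in WT, without overlap.

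On the Tcl1 side, D430019H16Rik and Bdkrb2 were at most 0.01 and 0.07 FPKM. The third, the bradykinin receptor gene Bdkrb1, lay 381.4 kb away. It was 27.73, 20.76 and 18.92 FPKM in Bnc1tr/tr and 8.87, 10.51 and 7.46 in WT, and it rose (log2 fold change 1.23, SE 0.202, limma adjusted p = 0.00186). Of the 6 flanking genes, 1 of the 3 that were tested was thus called, beside 31.8% of all tested genes. RefSeq placed 7 genes between Bdkrb1 and the cluster, so it was not an adjacent gene.

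The genes whose pattern over the 6 libraries was most like that of the summed members were found among 5277 genes of at least 10 FPKM. Likeness was the root mean square difference of centred log2 values, with a median of 0.339 over these genes. Of the 5 closest, 4 are described, the splicing factor gene Rbm39 (0.0452), the RNA polymerase III subunit gene Polr3a (0.0493), the receptor gene Kit (0.0518) and Aasdhppt (0.0523). By the same measure Tcl1, which dominates the sum, was at 0.0187, Tcl1b1 at 0.0618 and Tcl1b3 at 0.0679. Tcl1b5, Tcl1b2 and Tcl1b4 were further away, at 0.187, 0.376 and 0.451. None of these 4 genes was called. They were chosen for likeness to the summed members, so fold changes near that of the sum were fixed by the choice.

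Since TCL1 acts on AKT, a list of 43 AKT pathway genes was examined. Of these, 28 were tested, 3 were called higher and 0 lower by limma, beside the 24.1% and 7.68% of all tested genes. At an unadjusted limma p under 0.05, 7 were higher and 1 was lower. The share of all tested genes at that level was not counted, so no shift of the list is read from these counts. The median log2 fold change of the 28 was 0.18, near the 0.15 of all tested genes.

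Transcripts of the kinase genes Akt1 and Akt2 were far less abundant than those of the Tcl1 cluster genes. Akt1 was 7.19, 5.85 and 4.77 FPKM in Bnc1tr/tr and 5.46, 3.87 and 2.59 in WT (log2 fold change 0.51, limma adjusted p = 0.143), and the groups overlapped. Akt2 was 2.58 ± 0.792 and 2.49 ± 0.445 FPKM (SD, n = 3 each), with a fold change of 0.02 on the log2 scale whose sign turned under other scalings.

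Upstream of AKT, the 1 receptor or adaptor gene tested was Kit, the receptor for KIT ligand from granulosa cells. It was 42.95, 36.81 and 39.55 FPKM in Bnc1tr/tr and 27.81, 28.26 and 28.39 in WT (log2 fold change 0.48, limma adjusted p = 0.0412). It passed the adjusted p but not the fold threshold, and was not called, except with scaling over genes of at least 100 FPKM (0.54). Of 5 PI3K subunits tested, Pik3r3, a regulatory subunit, rose from 12.7 ± 1.34 to 21.4 ± 4.53 FPKM (SD, n = 3 each; log2 fold change 0.69, limma adjusted p = 0.0254). This call was lost in 6 of 15 alternatives.

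Among 4 activating kinases tested, 0 were called. Mtor, the kinase of both mTOR complexes, had a log2 fold change of -0.24 (-0.68 and called lower with quantile normalization) and Rictor, the mTORC2 scaffold, of 0.12, whose sign turned under median-ratio and quantile scaling. Among 6 inhibitors and phosphatases tested, 0 were called.

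Of 9 AKT substrates tested, 2 were called. Cdkn1b, the p27 inhibitor of cyclin-dependent kinases, rose from 7.03, 6.51 and 10.52 FPKM in WT to 21.83, 21.63 and 20.12 in Bnc1tr/tr (log2 fold change 1.32, SE 0.198, limma adjusted p = 0.00114). Foxo1, a forkhead transcription factor, rose from 20.9 ± 3.71 to 30.99 ± 2.32 FPKM (SD, n = 3 each; log2 fold change 0.56, limma adjusted p = 0.0411), a call that was lost in 10 of 15 alternatives. Foxo3, which restrains primordial follicle activation, had a fold change of -0.36 on the log2 scale (adjusted p = 0.164). Quantile normalization called Foxo3 (-0.57) and Tsc2 (-0.65) lower. As deposited, Gsk3b and Tsc2 had values of 0.05 and -0.21 and were not called, and the sign of Gsk3b turned under other scalings.

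**Figure D5:**
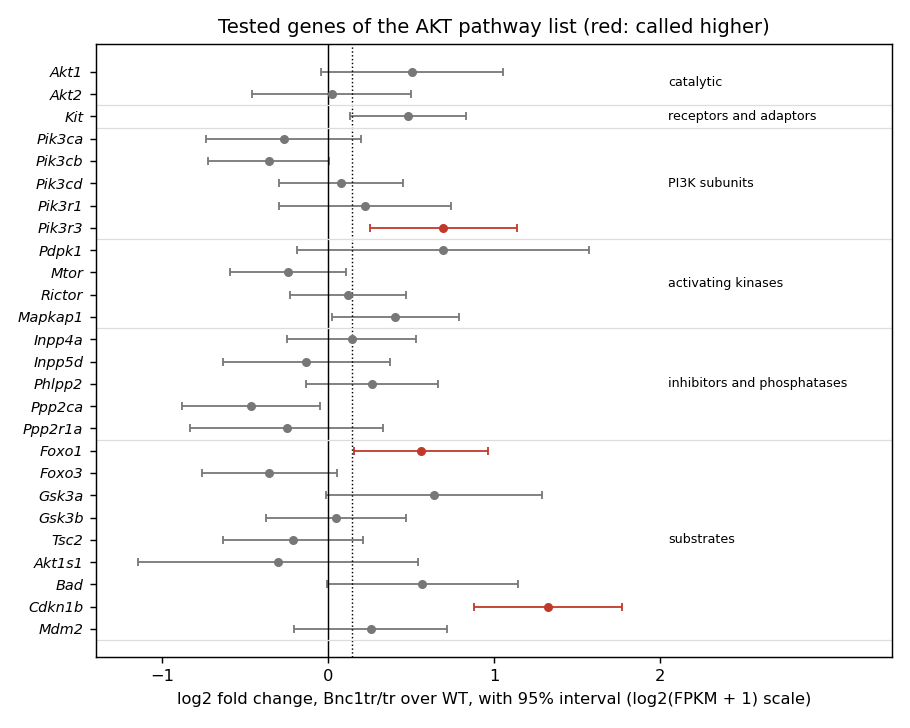
Log2 fold change of Bnc1tr/tr over WT with its 95% interval for 26 of the 28 tested genes of the AKT pathway list, grouped by role. The dotted line is the median of all tested genes (0.15), and the 3 called genes, Pik3r3, Foxo1 and Cdkn1b, are red.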

How the data were processed

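RNA-seq was measured in 6 GV oocyte libraries, 3 per genotype by the labels, made by a modified Smart-seq2 procedure. The authors deposited FPKM per gene and library, rounded to 2 decimals. The submitters' processing notes name HISAT2 2.0.4, Bowtie2 2.2.5, RSEM 1.2.12 and GRCm38.p6. Reads shared by paralogues are divided by estimation in RSEM, and FPKM is relative to the whole library.

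For the 10560 genes whose mean reached 1 FPKM, log2(FPKM + 1) was fitted by genotype in limma 3.58.1 (R 4.3.3), with Benjamini-Hochberg adjustment over all of them. This scale understates the change of low genes. A call needed an adjusted p below 0.05 together with a log2 fold change beyond 0.5 in either direction. On simulated data over 10560 genes, 48 of 100 genes changed by 1 log2 unit and 92 of 100 changed by 2 were recovered, with 9 false calls. Depth was estimated from the step between low FPKM values multiplied by transcript length, and no test used it.

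Alternatives were another pseudocount, other filters, scalings and fold thresholds, robust variances, a replicate block, and leaving out each library. Median-ratio scaling over genes of at least 100 FPKM was chosen after seeing the data. The members and lists were chosen with earlier results of these data known. Genes named were the members, Mtcp1, Bnc1, the 3 nearest listed genes on each side, the 5 genes most like the summed members, and set AKT pathway genes with every called one, of which 3 are not reported here. Promoters and gene models came from RefSeq, and all 6 members matched. Transcripts came from GENCODE M21. Sequences were handled with Python 3 and Biopython. Upstream and transcript identities are from global alignments with free end gaps.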

Additional observations from a re-analysis of the deposited data

How the results depend on the processing

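Of 105 alternative values of the 6 members and Bnc1, 102 kept their direction and their call, which joins the adjusted p and the fold threshold, and 0 turned. The adjusted p alone went below 0.05 for Tcl1 without a filter (0.0343) and with trend and robust variances (0.0458). It did so for Tcl1b3 without a filter (0.0195), with trend and robust variances (0.0289), with quantile normalization (0.0459) and with scaling over genes of at least 100 FPKM (0.0485). Tcl1b4 stayed called in all 15 alternatives (1.099 to 1.35, adjusted p 8.15e-05 to 0.0028). Tcl1 passed with quantile normalization (0.61, adjusted p = 0.0204, range 0.0204 to 0.36), Tcl1b2 passed with median-ratio scaling (-0.51, adjusted p = 0.0378, range 0.0378 to 0.394), and Tcl1b5 was lost without WT replicate 2 (0.66; adjusted p = 0.0581, range 0.00491 to 0.0581). The cause was not tested.

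Leaving out 1 library gave 1 to 2 members called (1 without WT replicate 2), log2 fold changes of 0.65 to 0.80 for Tcl1b5, and 1905 to 2498 genes called higher against 2547. Genes called lower ranged from 418 to 1041 against 811, with 418 without WT replicate 2, 526 without Bnc1tr/tr replicate 1 and 534 without Bnc1tr/tr replicate 3. AKT list genes called ranged from 1 to 5 higher (1 without Bnc1tr/tr replicate 1, Bnc1tr/tr replicate 3 or WT replicate 2, and 5 without WT replicate 3) and from 0 to 1 lower (1 without Bnc1tr/tr replicate 1 or WT replicate 3). Among these fits Akt2 turned sign without Bnc1tr/tr replicates 1 and 3 and WT replicate 2 (lowest -0.11, highest 0.21), and Gsk3b without Bnc1tr/tr replicate 1 and WT replicate 1 (lowest -0.0740, highest 0.17).

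Upper-quartile scaling gave 1231 genes lower and 1 AKT list gene lower, with Akt2 at -0.0816, Gsk3b at -0.0756 and Glrx5 at -0.0213. Median-ratio scaling gave 1395 genes lower and 1 AKT list gene in each direction, with Akt2 at -0.11, Gsk3b at -0.11, Rictor at -0.0308 and Glrx5 at -0.0664. Quantile normalization gave 1666 genes higher and 1804 lower, with 1 AKT list gene higher and 5 lower (Mtor, Tsc2 and Foxo3 among them), Akt2 at -0.41, Gsk3b at -0.30, Rictor at -0.28 and Syne3 at -0.20. Pik3r3 was lost with median-ratio and quantile scaling and without Bnc1tr/tr replicate 1, Bnc1tr/tr replicate 3, WT replicate 2 or WT replicate 3 (adjusted p up to 0.0877). Without a filter, 5 AKT list genes were higher, and a minimum of 5 FPKM left 1413 genes higher, with fewer genes tested. A fold threshold of 1 left 1418 genes higher, 259 lower, 1 member and 1 AKT list gene.

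Same-numbered libraries did not deviate together in every pair (r = 0.278, -0.0344 and 0.124 across genes), so the numbers were not taken as a pairing. With the replicate block, 2781 genes were higher and 952 lower, and 2 members were called, with adjusted p = 0.000707 for Tcl1b4 and 0.0172 for Tcl1b5. Akt1 gained a call under the block (0.51, adjusted p = 0.0491, range 0.0491 to 0.638) and Foxo1 lost its own (0.56, adjusted p = 0.0511, range 0.0134 to 0.171). Not every library correlated best with its own number.

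On simulated data limma recovered 48 of 100 genes changed by 1 log2 unit. Far fewer genes changed there than were called here, so recovery of the members was not measured.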
